A study of Mus musculus with 4 samples.

Results

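Dek and 9 histone chaperone genes, namely Set, Daxx, Atrx, Hira, Chaf1a, Chaf1b, Asf1a, Asf1b and Nasp, were read from the expression table of mouse muscle stem cells by gene symbol. All 10 were among the 24328 symbols of the table, and all 10 were among the 12179 genes that reached 1 FPKM in at least 2 of the 4 libraries and were tested. FPKM is a level scaled to the length of the transcript and the size of the library. The RNA was polyadenylated and came from muscle stem cells, also called satellite cells. Perfusion with paraformaldehyde fixed them inside the animal before muscle was digested and the cells were sorted. The DEK group, with 2 libraries, came from mice of 4.5 months with the genotype Pax7CreERT2/+; H11DEK-EGFP/+. The YFP group, also with 2 libraries, came from mice of 7 months with the genotype Pax7CreERT2/+; ROSA26YFP/+. Both groups carried the same Cre driver, a tamoxifen-inducible recombinase expressed from Pax7, a gene of satellite cells, and both were perfused. The groups thus also differ in age, in the fluorescent reporter and in the targeted locus, and effects of these and of DEK cannot be told apart. Sex and the number of animals per library are not in the labels. Nor do they call the replicates separate animals, and p-values then reflect only how far these libraries spread.

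DNA is packed around histones, and chaperones carry histones between their synthesis, their deposition and their reuse. Dek is an abundant DNA-binding chromatin protein that takes part in the placement of the histone variant H3.3 and in splicing, and in muscle stem cells it has been linked to the handling of retained introns on leaving quiescence. H3.3 is placed outside of DNA replication, by Hira at active genes and by the pair Daxx and Atrx at heterochromatin and telomeres. Replication uses another route, in which the CAF-1 complex, with Chaf1a and Chaf1b as its large subunits, loads new H3 and H4 behind the fork. Asf1a and Asf1b hand H3 and H4 to either route, Nasp keeps the soluble reserve of H3 and H4, and Set binds histones and inhibits the phosphatase PP2A. Quiescent satellite cells do not replicate their DNA.

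The promoter of Chaf1b is shown because it was the member that fell, and those of the Asf1 pair because these paralogues are used in different settings, Asf1b mainly in dividing cells and Asf1a also in resting ones. The sequences are the 250 bases before the RefSeq start of each gene, 5′ to 3′ on the strand of the gene, build GRCm38.p6, with capitals at each CCAAT box (on either strand, so CCAAT or ATTGG) and each TTTGAA word, a cell cycle homology element.
Asf1b, chr8:83955444-83955693, plus strand: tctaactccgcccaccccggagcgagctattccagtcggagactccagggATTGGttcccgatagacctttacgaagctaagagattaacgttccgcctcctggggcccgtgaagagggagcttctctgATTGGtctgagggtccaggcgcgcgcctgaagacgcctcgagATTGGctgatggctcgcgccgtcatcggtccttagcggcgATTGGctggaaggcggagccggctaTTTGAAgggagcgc
Asf1a, chr10:53596711-53596960, plus strand: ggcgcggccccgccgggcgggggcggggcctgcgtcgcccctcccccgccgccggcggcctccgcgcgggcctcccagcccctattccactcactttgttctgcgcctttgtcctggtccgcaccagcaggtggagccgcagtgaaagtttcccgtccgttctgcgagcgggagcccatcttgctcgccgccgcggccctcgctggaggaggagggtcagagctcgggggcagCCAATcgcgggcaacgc
Chaf1b, chr16:93883651-93883900, plus strand: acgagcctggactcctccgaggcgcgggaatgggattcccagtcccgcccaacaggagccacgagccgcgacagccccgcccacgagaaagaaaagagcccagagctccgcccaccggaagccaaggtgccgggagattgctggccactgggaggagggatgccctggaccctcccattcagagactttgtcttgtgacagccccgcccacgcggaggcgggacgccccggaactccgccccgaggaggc

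The search covered 300 bases, 250 before and 50 after each start, in 13 windows of the 10 genes. It looked on both strands for the words TTTCCCGC, TTTGGCGC, TTTCGCGC and TTTGCCGC (bound by E2F factors, which drive genes of DNA synthesis), TTTGAA, for the CCAAT box and for GAANNTTC (a heat shock element). TTTGAA and GAANNTTC can share letters, but no matches overlapped in the windows of the members. The Asf1b window held 4 CCAAT boxes and 1 TTTGAA, and the Asf1a window 1 CCAAT box and 0 TTTGAA. Atrx was the other member with 4 CCAAT boxes, a number reached in 1.06% of 32851 mouse promoter windows. A CCAAT box stood in 9 of the 13 member windows, those of 8 genes, and in 37.4% of all windows. TTTGAA stood in 4 of the 13, each of another gene, and in 17.9% of all windows. Both words stood together in 4 of the 13, from Dek, Set, Asf1b and Nasp, and in 6.95% of all windows. E2F-type words were in 0 of the 13 and in 2.26% of all windows, and the heat shock word in 1 of the 13, of Set, and in 7.86% of all windows. Hira and Chaf1b held none of the words.

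Satellite cell genes were present in every library. All 12 markers on that list were tested, 1 rose by limma, Cd34, and Pax7, the defining transcription factor, stood at 119 and 184 FPKM in DEK and at 106 and 93.9 FPKM in YFP. Markers of other cells differed by list, while 4.57% of all tested genes rose and 3.21% fell by limma. The summed level of 12 endothelial markers was 287 and 229 FPKM in DEK and 61.0 and 60.2 FPKM in YFP, where Kdr, Flt1 and Ptprb were listed at 0 in both libraries, and 11 of the 12 rose by limma. Most of the YFP sums was Tek, the 1 marker not called, at 55.9 and 56.7 FPKM in YFP and 78.8 and 66.5 FPKM in DEK. The sum of 10 macrophage markers was 201 and 196 FPKM in DEK and 2.91 and 27.4 FPKM in YFP, and 4 of 7 tested rose. For 15 immediate early and heat shock genes it was 20390 and 4533 FPKM in DEK and 744 and 666 FPKM in YFP, with 9 of 15 called higher. The calls in these 3 lists changed with the library left out, and limma called far fewer genes over the whole table in those fits. Median log2 fold changes without DEK replicates 1 and 2 and YFP replicates 1 and 2 in turn were as follows. They were 2.70, 2.95, 2.85 and 2.80 for the endothelial markers and 2.37, 1.92, 2.15 and 2.15 for the macrophage markers. For the immediate early and heat shock genes they were 2.45, 4.85, 3.86 and 3.63. Of 8 markers of fibro-adipogenic progenitors 4 rose and 2 fell, with sums of 981.5 and 1104 FPKM in DEK and 1179 and 932 FPKM in YFP. Of 7 pericyte and smooth muscle markers 2 rose, Rgs5 and Myh11, and 0 fell, with a median log2 fold change of 0.02 and sums of 445 and 680 FPKM in DEK and 607 and 620 FPKM in YFP. Of 8 myofibre markers 3 were tested and 0 were called by limma (2 had an unadjusted p under 0.05 with DEK higher and 1 with DEK lower), with sums of 79.2 and 28.4 FPKM in DEK and 58.2 and 49.5 FPKM in YFP. The sum of 5 erythroid markers was 37.3 and 185 FPKM in DEK and 6.09 and 0.519 FPKM in YFP, and 2 of 3 tested rose. For 7 Schwann and tendon markers it was 35.3 and 30.3 FPKM in DEK and 12.25 and 8.67 FPKM in YFP, and 3 of 4 tested rose. The part of these cells and genes in the results on the chaperones was not tested. Rn45s, the precursor of ribosomal RNA, made up 5.15% and 5.55% of all FPKM in DEK and 11.8% and 15.7% in YFP. When it was removed and the rest rescaled, tested genes had a median log2 fold change of -0.07, against 0.05 with the values as deposited. In RNA of a sorted population, fewer cells of a type and less RNA per cell cannot be told apart.

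Each gene was compared on the scale log2(FPKM + 1) by limma, a linear model with a variance shared across genes, and was called at a Benjamini-Hochberg adjusted p under 0.05 over all 12179 genes. Of the 10 members 1 rose, Dek, and 1 fell, Chaf1b. Dek is the gene of the transgene, so its rise was given by the design. Of the 9 other members 0 rose and 1 fell. In all 948 genes were called, 7.78% of those tested, 557 higher (4.57%) and 391 lower (3.21%). At an unadjusted p under 0.05 by limma, 1 member, Dek itself, was higher and 3 were lower in DEK. Of all tested genes 16.9% were higher and 12.2% lower. The higher share of the calls was 58.8%, and it was 42.6% with Rn45s removed and 45.4% with quantile normalization. The groups did not overlap in 8 of the 10 members, 2 with DEK above (Dek itself and Atrx) and 6 with DEK below. Among all tested genes, 60.9% had groups that did not overlap and 26.9% had DEK below. The median log2 fold change of the 9 members other than Dek was -0.29, against 0.05 over all tested genes. With 2 libraries against 2 the smallest exact permutation p is 0.333.

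**Figure D1:**
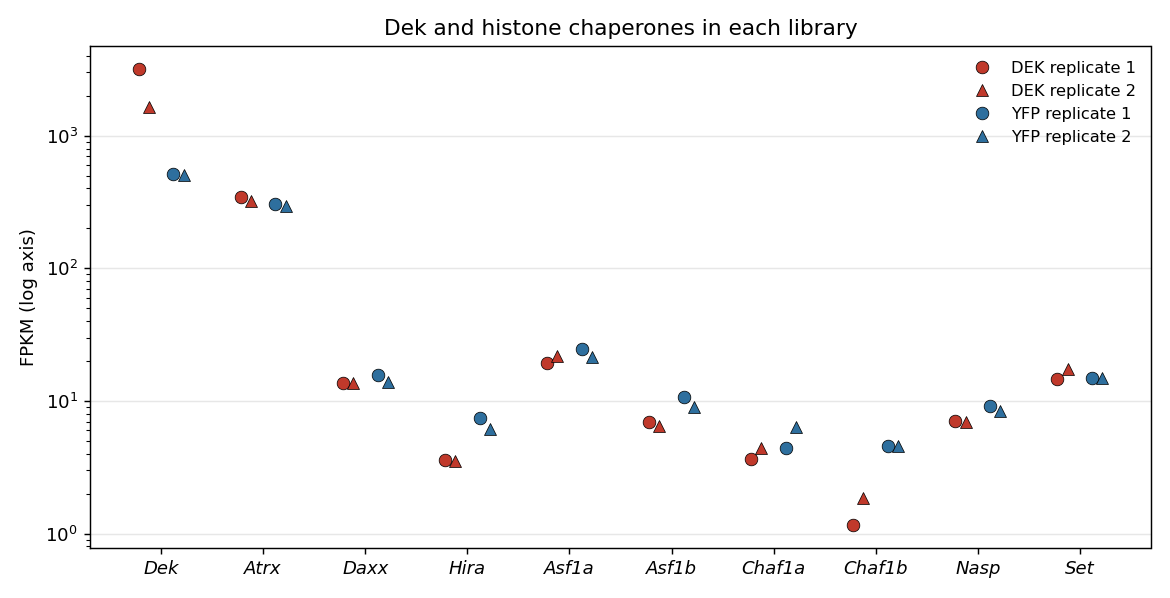
FPKM of Dek and the 9 histone chaperone genes on a log axis, with a point for each library (DEK left in red, YFP right in blue, circles for replicate 1 and triangles for replicate 2). Dek and Atrx stand at 294 FPKM or more in all 4 libraries, all others lie at 24.9 FPKM or lower, and the 2 DEK points of Chaf1b and Hira lie below both YFP points.

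Dek was the most abundant of the 10 in every library, at 3196 and 1639.5 FPKM in DEK and at 512 and 504 FPKM in YFP. It ranked 10th and 21st among all symbols in the DEK libraries, and 97th and 87th in the YFP libraries, so the gene that the transgene adds to was already among the most abundant. The rise was 6.29-fold over the YFP mean in DEK replicate 1 and 3.23-fold in DEK replicate 2 (log2 fold change 2.17, SE 0.31, limma adjusted p = 0.0195). The 2 DEK libraries thus differed from each other by 1.95-fold, while the YFP libraries differed by 1.01-fold. The gap between the DEK libraries, 0.96 on the log2 scale, was larger than that of 96.8% of tested genes, for which the median gap was 0.20. The library with more Dek was also the one with the larger sum of immediate early and heat shock genes, and its part in the result was not tested. Without DEK replicate 1 the log2 fold change of Dek was 1.69 (limma adjusted p = 0.0798) and without DEK replicate 2 it was 2.65 (limma adjusted p = 0.0350). Without YFP replicate 1 and without YFP replicate 2 the limma adjusted p was 0.109 and 0.15. In GENCODE vM21, Kdm1b, a histone demethylase gene, overlaps Dek on the opposite strand, and 17.1% of the 75-base words of the longest Dek transcript also occur in it. The log2 fold change of Kdm1b was 0.43 (SE 0.17, limma adjusted p = 0.163), with 9.04 and 8.51 FPKM in DEK and 6.36 and 6.10 FPKM in YFP. The labels do not say which part of the Dek transcript the transgene holds, so endogenous Dek RNA cannot be told apart from transgene RNA.

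Over the 4 libraries, the genes with the profile most like that of Dek were Rgs5, Mir22, Taf7, Rgs2 and Hist1h4c. Likeness was measured as the root mean square difference of the log2 values after each gene's mean was subtracted, among 8603 genes with a mean of at least 5 FPKM. The differences were 0.133 for Rgs5, 0.201 for Mir22, 0.237 for Taf7, 0.254 for Rgs2 and 0.269 for Hist1h4c. Rgs5, a regulator of G protein signalling, stood at 23.0 and 12.1 FPKM in DEK and at 2.81 and 2.14 FPKM in YFP. For Chaf1a the nearest were Pex6, Ptpn23, Cul9, Arsb and Mvb12b, at 0.026 to 0.041. The closest pair of members, Daxx and Asf1a, stood 0.064 apart. The nearest genes were picked from 8603 and this pair from far fewer distances, so the values are not compared.

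**Figure D2:**
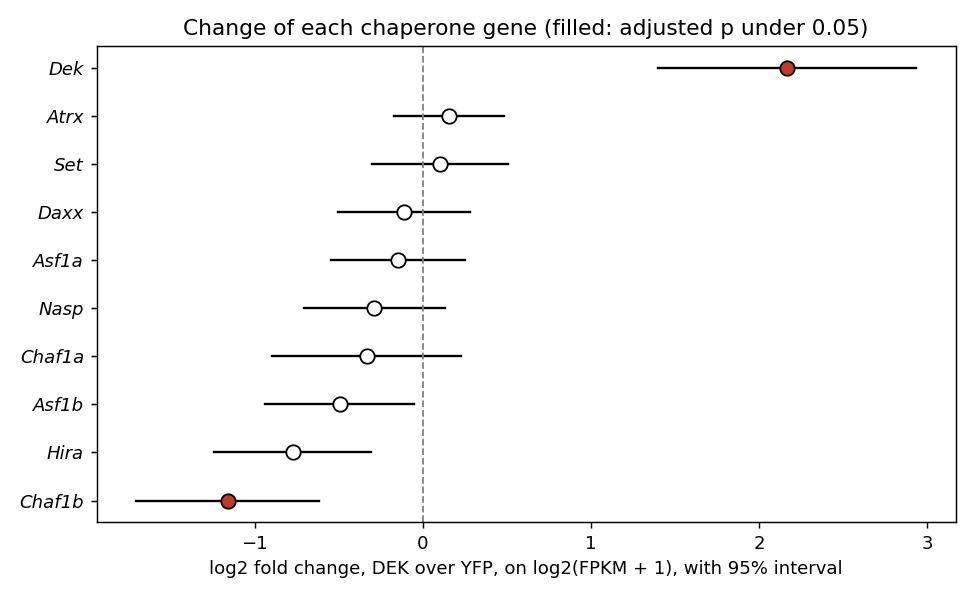
Log2 fold change of each member, DEK over YFP, on the log2(FPKM + 1) scale, with its 95% interval from limma and filled points at an adjusted p under 0.05. Dek at 2.17 and Chaf1b at -1.16 are filled, and the intervals of Hira and Asf1b also lie below 0 but their adjusted p is 0.0647 and 0.142.

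None of Hira, Daxx and Atrx, the chaperones that place H3.3, passed the test. Atrx, the chromatin remodeller of the Daxx and Atrx pair, was the second most abundant member in every library, at 347 and 320 FPKM in DEK and at 304 and 294 FPKM in YFP. Both DEK values lay above both YFP values, yet the log2 fold change was 0.16 (95% interval -0.17 to 0.48, limma adjusted p = 0.483). Atrx lies on the X chromosome, and in all 4 libraries Xist stood under 0.4 FPKM while the Y-linked Ddx3y stood at 77.4 FPKM or more, in both groups alike. Daxx, which holds the H3.3 and H4 pair, was at 13.6 and 13.5 FPKM in DEK and at 15.7 and 13.9 FPKM in YFP. Its log2 fold change was -0.11 (95% interval -0.51 to 0.28, limma adjusted p = 0.678).

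Hira, the scaffold of the complex that places H3.3 at active genes, had 3.57 and 3.51 FPKM in DEK and 7.38 and 6.20 FPKM in YFP. The DEK level was thus 0.521 of the YFP level, with close replicates in DEK, and the groups did not overlap. The log2 fold change was -0.77 (SE 0.19, 95% interval -1.24 to -0.31, limma adjusted p = 0.0647), which missed the threshold. With Rn45s removed it passed, at -0.91 (limma adjusted p = 0.0448). Within a library, the ratio of Hira to Daxx was 0.263 and 0.259 in DEK and 0.470 and 0.447 in YFP. This ratio does not depend on library scaling, and its groups did not overlap. Gm28539, a protein-coding gene that overlaps Hira on the same strand in GENCODE vM21 and was not in the table, contains 63.6% of the 75-base words of the longest Hira transcript, so the value may hold reads of it.

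Asf1a and Asf1b, the paralogues that pass H3 and H4 to Hira and CAF-1, kept their order in all 4 libraries. Asf1a was at 19.5 and 22.0 FPKM in DEK and at 24.9 and 21.3 FPKM in YFP, with overlapping groups (log2 fold change -0.15, 95% interval -0.55 to 0.25, limma adjusted p = 0.584). Asf1b, the paralogue of dividing cells, was at 6.98 and 6.49 FPKM in DEK and at 10.8 and 9.07 FPKM in YFP. Its groups did not overlap, but the log2 fold change of -0.50 (SE 0.18) had a limma adjusted p of 0.142. The ratio of Asf1b to Asf1a within a library was 0.358 and 0.296 in DEK and 0.435 and 0.425 in YFP. Mcm9, a gene of DNA repair, spans Asf1a on the opposite strand, and 64.3% of the 75-base words of Asf1a occur in its transcripts. The level of Mcm9 was 6.19 and 7.52 FPKM in DEK and 5.18 and 2.76 FPKM in YFP (log2 fold change 0.70, SE 0.28, limma adjusted p = 0.169). Whether the authors counted with regard to strand is not given in the sources used here.

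Of the CAF-1 subunits, Chaf1b fell and Chaf1a did not pass the test. Chaf1b, the mid-sized subunit, stood at 1.16 and 1.84 FPKM in DEK and at 4.55 and 4.55 FPKM in YFP. The DEK level was 0.330 of the YFP level, the lowest ratio among the 10, and the groups did not overlap (log2 fold change -1.16, SE 0.22, limma adjusted p = 0.0376). With any 1 library left out limma called far fewer genes in all, and Chaf1b was not among them. With DEK replicates 1 and 2 left out in turn the log2 fold change of Chaf1b was -0.966 and -1.36. With YFP replicate 1 or 2 left out it was -1.16. The call was also lost with an added value of 0.1 (limma adjusted p = 0.0509), with no low filter (0.1) and with the replicate number as a term of the model (0.0555). Chaf1a, the large subunit that binds the replication clamp, was at 3.67 and 4.40 FPKM in DEK and at 4.44 and 6.37 FPKM in YFP (log2 fold change -0.33, SE 0.23, limma adjusted p = 0.376). Its highest DEK value lay just under its lowest YFP value. The ratio of Chaf1a to Chaf1b was 3.15 and 2.39 in DEK and 0.977 and 1.40 in YFP, so it was higher in both DEK libraries on the FPKM scale. Ubxn6 overlaps the end of Chaf1a on the opposite strand and contains 44.1% of its 75-base words. Ubxn6 stood at 21.1 and 24.1 FPKM in DEK and at 27.7 and 28.7 FPKM in YFP, above Chaf1a in every library. The Chaf1a value may hold reads of Ubxn6, so its level and its ratio to Chaf1b are uncertain. Chaf1b shares 0% of its words with other annotated transcripts.

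**Figure D3:**
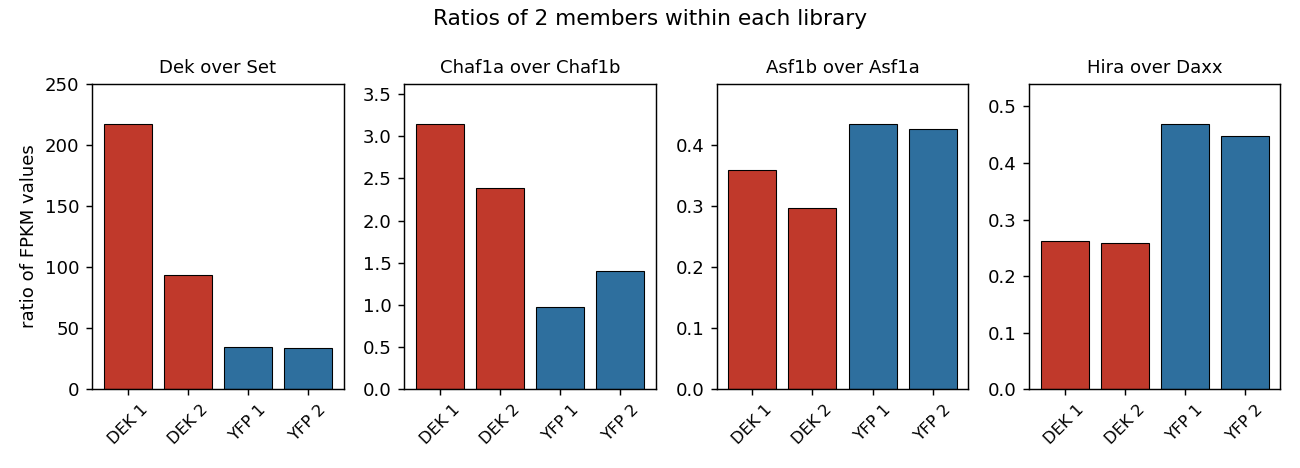
Ratio of the FPKM values of 2 members within each library, with bars for DEK replicates 1 and 2 (red) and YFP replicates 1 and 2 (blue), and axes that start at 0. Dek over Set and Chaf1a over Chaf1b are higher in both DEK libraries, and Asf1b over Asf1a and Hira over Daxx are lower in both DEK libraries.

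Nasp, the keeper of soluble H3 and H4, was at 7.08 and 6.92 FPKM in DEK and at 9.17 and 8.39 FPKM in YFP. The groups did not overlap, and the log2 fold change was -0.29 (95% interval -0.71 to 0.13, limma adjusted p = 0.315). Set was at 14.7 and 17.5 FPKM in DEK and at 14.8 and 15.0 FPKM in YFP, with overlapping groups (log2 fold change 0.10, 95% interval -0.30 to 0.51, limma adjusted p = 0.723). Of the 75-base words of Set, 35.9% occur in transcripts of 10 other annotated genes, so its level is uncertain. As Dek rose and Set did not pass, the ratio of Dek to Set was 218 and 93.5 in DEK and 34.5 and 33.7 in YFP.

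The order of the levels was much the same in both groups. Dek, Atrx and Asf1a held ranks 1, 2 and 3 of the 10 in all 4 libraries, without overlap between neighbours within a group. Set and Daxx followed, at 16.1 ± 2.01 and 13.6 ± 0.0368 FPKM in DEK and at 14.9 ± 0.0805 and 14.8 ± 1.31 FPKM in YFP (SD, n = 2), and in YFP they did not differ beyond their spread. Asf1b and Nasp also lay within their spread of each other, at 6.74 ± 0.345 and 7.00 ± 0.110 FPKM in DEK and at 9.94 ± 1.23 and 8.78 ± 0.549 FPKM in YFP. Hira, Chaf1a and Chaf1b were the lowest. In YFP, Chaf1a at 5.41 ± 1.36 FPKM spanned Chaf1b at 4.55 ± 0.00369 FPKM, while in DEK Chaf1b was last in both libraries (SD, n = 2).

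A wider set of 41 chaperone and chaperone partner genes held 38 tested genes, of which 2 rose and 4 fell by limma. Of all tested genes 4.57% rose and 3.21% fell. Among the 4 that fell, 3 were from the 5 genes for the centromeric variant CENP-A, given below. The median log2 fold change of the 38 tested genes was 0.13, against 0.05 over all tested genes. The groups did not overlap in 16 with DEK above, against 34% of all tested genes, and in 14 with DEK below, against 26.9%. With any 1 library left out limma called 0 of the 38, and 9, 12, 9 and 6 had an unadjusted p under 0.05 on leaving out DEK replicates 1 and 2 and YFP replicates 1 and 2 in turn. In the same fits 18.2%, 23.8%, 24.8% and 19.1% of all tested genes had one, so these counts lie near the background.

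**Figure D4:**
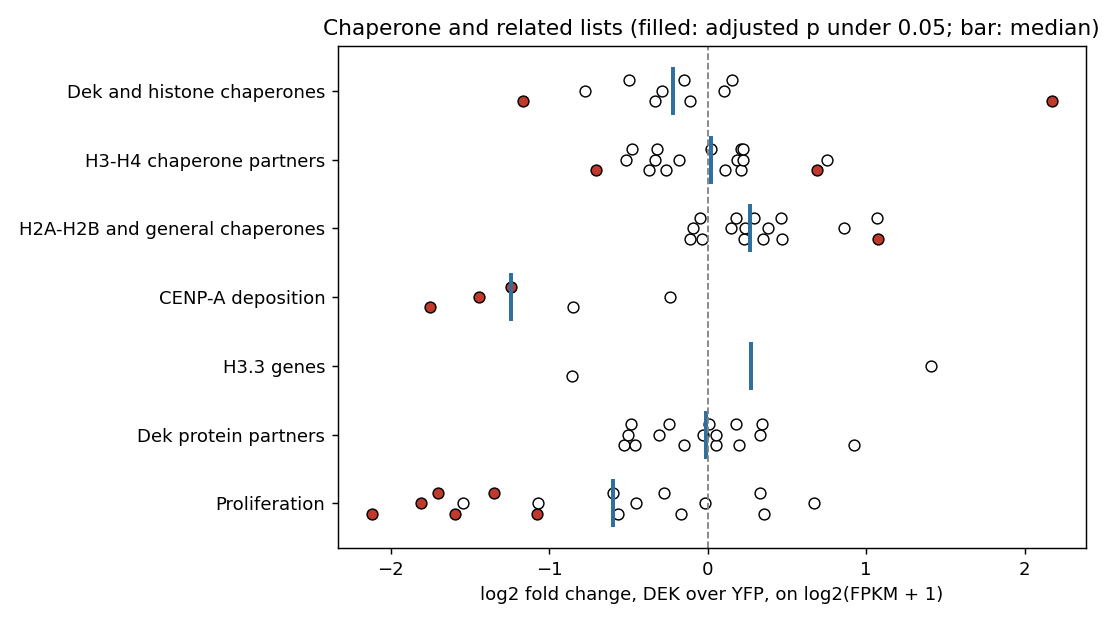
Log2 fold change, DEK over YFP, of each tested gene in 7 lists on the log2(FPKM + 1) scale, with filled points at an adjusted p under 0.05 and a blue bar at the list median. The CENP-A deposition genes all lie below 0, with a median of -1.24, and the H2A-H2B and general chaperones have a median of 0.26.

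Among 17 partners of the H3 and H4 route, 1 rose and 1 fell by limma, with a median of 0.02. Ubn1, a subunit of the Hira complex that binds H3.3, fell, with 18.0 and 18.8 FPKM in DEK and 29.4 and 31.8 FPKM in YFP (log2 fold change -0.71, SE 0.15, limma adjusted p = 0.0430). The remaining subunits of that complex did not pass: Ubn2 had a log2 fold change of -0.33 and Cabin1 of -0.18, with limma adjusted p = 0.205 and 0.579. Grwd1, a histone-binding protein of ribosome assembly, rose, with 59.4 and 66.6 FPKM in DEK and 36.2 and 41.2 FPKM in YFP (log2 fold change 0.69, SE 0.15, limma adjusted p = 0.0474). Over its alternatives the limma adjusted p of Grwd1 ran from 0.0418 to 0.174, and it was 0.0820 with Rn45s removed. Rbbp4, the small subunit of CAF-1, was at 30.8 and 35.3 FPKM in DEK and at 31.5 and 29.4 FPKM in YFP (log2 fold change 0.11, limma adjusted p = 0.664).

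Of 19 chaperones of H2A and H2B or of broad use, 16 were tested, 1 rose and 0 fell by limma, with a median of 0.26, which was 0.13 with Rn45s removed. At an unadjusted p under 0.05 there were 5 of the 16 higher and 0 lower, against 16.9% higher and 12.2% lower of all tested genes. With Rn45s removed 2 of the 16 were higher, against 11.8% of all tested genes, so the higher count depended on the scaling. With quantile normalization it was 4, against 14.1%. Nap1l5, an imprinted member of the nucleosome assembly protein family, rose, with 38.3 and 28.1 FPKM in DEK and 17.5 and 12.9 FPKM in YFP (log2 fold change 1.07, SE 0.22, limma adjusted p = 0.0446). Over its alternatives the limma adjusted p ran from 0.0331 to 0.238, and it was 0.0537 with Rn45s removed. Ssrp1, a subunit of the FACT complex, missed the threshold at a log2 fold change of 0.47 (limma adjusted p = 0.0969), as did nucleolin, Ncl, at 0.47 (limma adjusted p = 0.0810).

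The 5 genes that place the centromeric variant CENP-A, which happens once in each cell division, had the lowest median log2 fold change of the chaperone lists. All 5 had both DEK values below both YFP values, against 26.9% of all tested genes. By limma 3 fell, against 3.21% of all tested genes, and 0 rose. The median was -1.24, and with a library left out it ran from -1.37 to -1.11. Cenpa itself stood at 2.39 and 4.47 FPKM in DEK and at 11.7 and 9.79 FPKM in YFP (log2 fold change -1.44, SE 0.27, limma adjusted p = 0.0372). Oip5, which helps to prepare centromeres for new CENP-A, was at 0.941 and 1.34 FPKM in DEK and at 4.43 and 3.66 FPKM in YFP (log2 fold change -1.24, SE 0.22, limma adjusted p = 0.0319), and 9.72% of its 75-base words also occur in Nusap1. The CENP-A chaperone Hjurp was at 27.8 and 15.7 FPKM in DEK and at 40.3 and 36.7 FPKM in YFP, and did not pass (log2 fold change -0.85, SE 0.27, limma adjusted p = 0.107).

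Of 20 proliferation genes, 17 were tested, 6 fell, 0 rose and 11 were not called by limma, and the median was -0.60. With DEK replicates 1 and 2 and YFP replicates 1 and 2 left out in turn, limma called 0, 1, 0 and 0 of the 17, with 7, 10, 8 and 9 lower at an unadjusted p under 0.05, against 6.63%, 11.9%, 9.1% and 8.4% of all tested genes in these fits. The summed level was 128 and 135 FPKM in DEK and 183 and 164 FPKM in YFP. Ccna2, the cyclin of S phase, stood at 2.46 and 3.83 FPKM in DEK and at 12.2 and 10.6 FPKM in YFP (log2 fold change -1.59, SE 0.23, limma adjusted p = 0.0195). Genes of the replication helicase did not fall together. Log2 fold changes were -0.60 for Mcm5, -0.56 for Mcm6, -0.45 for Mcm3 and -0.37 for Mcm2, a gene of the H3 and H4 partner list. They were 0.33 for Mcm4 and 0.36 for Mcm7, and none of these helicase genes passed (limma adjusted p = 0.151 to 0.308). The part of cycling cells in the lower Chaf1b and CENP-A deposition values was not tested.

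The genes of the histone that Hira, Daxx and Atrx carry had log2 fold changes of opposite sign, and neither passed the test. H3f3b had 5119 and 2228 FPKM in DEK and 1373 and 1177 FPKM in YFP (log2 fold change 1.41, SE 0.39, limma adjusted p = 0.0794). H3f3a, which encodes the same protein, had 48.9 and 85.2 FPKM in DEK and 125 and 111 FPKM in YFP (log2 fold change -0.86, SE 0.27, limma adjusted p = 0.102). In neither did the groups overlap, and in both the DEK library farther from YFP was replicate 1, the library with more Dek. Without DEK replicate 2, H3f3b passed (log2 fold change 2.01, limma adjusted p = 0.0466), as it did with quantile normalization (log2 fold change 1.11, limma adjusted p = 0.0465). Without DEK replicate 1 its log2 fold change was 0.81 (limma adjusted p = 0.168), and with YFP replicates 1 and 2 left out in turn the limma adjusted p was 0.212 and 0.323. Of the 75-base words of H3f3a, 27.9% occur in 29 other annotated genes, so its value is uncertain, and for H3f3b the share was 4.26%.

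Of 16 genes for proteins known to work with or on DEK, among them the kinase CK2, the splicing factor U2AF and the exon junction proteins, 0 were called by limma, and their median log2 fold change was -0.01. At an unadjusted p under 0.05, 2 were higher in DEK and 3 lower, near the 16.9% and 12.2% of all tested genes. Rbm8a, a core protein of the exon junction complex, had 39.1 and 25.0 FPKM in DEK and 16.4 and 15.6 FPKM in YFP (log2 fold change 0.92, SE 0.23, limma adjusted p = 0.0657). Csnk2b, the regulatory subunit of CK2, which phosphorylates DEK, had 32.7 and 42.5 FPKM in DEK and 53.2 and 53.2 FPKM in YFP (log2 fold change -0.50, SE 0.17, limma adjusted p = 0.121).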

How the data were processed

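The values that the authors deposited, 1 for each symbol in each library, were taken as FPKM. The unit is inferred from values that are not whole and column totals of 541183 to 545123; TPM is possible. Per the submitters' processing notes, STAR 2.5.3a, StringTie 1.3.3 and R 3.4.1 were used on build mm9; the annotation and filters are not given in the sources used here. Depth is unknown, so no counting intervals are given. Tests used limma 3.58.1 in R 4.3.3 on log2(FPKM + 1), two-sided, with a variance trend and no covariates, on genes that reached 1 FPKM in 2 or more libraries. Fold changes on this scale understate low genes. The test was checked on simulated data. The members and lists were chosen with earlier results of these data known. Genes outside the members were named by rule: called genes of each list (at most 6, by size of change), or the 2 with the smallest p where none was called. Ubn2, Cabin1, Rbbp4, Ssrp1, Ncl, Hjurp, the Mcm genes, Pax7, Xist, Kdr, Flt1, Tek and Rn45s were chosen after their values were seen. Promoters came from RefSeq, GRCm38.p6, which held all 10 genes; overlaps and 75-base words, searched on both strands, came from GENCODE vM21 transcripts, a different build from the authors'. The values of 1 called gene of the lists are not reported here.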

Additional observations from a re-analysis of the deposited data

How the results depend on the processing

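Over all alternatives with a value, Dek kept its direction, with log2 fold changes of 1.69 to 2.65 and limma adjusted p from 0.0134 to 0.15; with libraries left out the range of log2 fold changes was the same, and with no low filter it was 2.17 (limma adjusted p = 0.0863). By limma, leaving out a library gave 0 to 1 called members, 0 of the wider chaperone genes, with 6 to 12 at an unadjusted p under 0.05, and 0 to 184 of all genes, with 2215 to 3018 at an unadjusted p under 0.05. The replicate number as a block called 1 member, as Chaf1b was at a limma adjusted p of 0.0555, 2 wider genes and 618 genes. Deviations of same-numbered libraries from their group means had r = 0.0635 across genes. With 2 libraries per group this is a single comparison, so it cannot show whether the numbers pair the samples. With no low filter limma called 0 members (4 at an unadjusted p under 0.05), 0 wider genes (13) and 293 genes. With an added value of 0.1 it called 1 member and 3 wider genes, with 5 FPKM as the minimum 1 member, as Chaf1b was not tested, and without the variance trend 3 wider genes. At an adjusted p under 0.1, 2096 genes were called. The higher share of calls was 53.4% with TMM factors and 45.4% with quantile normalization. With libraries left out Set ran from -0.019, without DEK replicate 2, to 0.221, and it was -0.033 with Rn45s removed; the cause was not tested. The other members kept their direction. Without counts, the depth behind low genes such as Chaf1b and Hira is not known.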
